A study of Mus musculus with 9 samples.

Results

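The genes described here are 10 that make prostaglandins and leukotrienes from arachidonic acid or receive prostaglandin E2. They are Ptgs1, Ptgs2, Ptges, Hpgds, Alox5, Alox5ap, Ltc4s, Lta4h, Ptger2 and Ptger4, and they were taken as every array probe that carries one of these names. This gave 11 probes of the 55681 on the array, of which 33250 had a gene name. Ptges had 2 probes and each of the others had 1. All 10 genes were on the array and all 10 passed the filter on dim probes, among 18594 genes tested.

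RNA was measured in peritoneal macrophages of male mice on 9 Agilent 1-colour arrays, with 3 arrays per group. Group M holds migratory macrophages recovered from the upper chamber of a Transwell, a well divided by a porous membrane, in a co-culture with CT-26 cells. CT-26 is a mouse colon carcinoma line, and the labels do not state how long the M co-culture lasted. Group T shared its lower-chamber culture with CT-26 cells for 24 h, whereas Ctrl macrophages were kept alone in regular medium for 24 h. All 3 groups were sorted before RNA extraction for CD45 and for the macrophage antigen that Adgre1 encodes, and strain and age are not given here. The cell type label names the T samples migratory and the M samples peritoneal macrophages, against their titles, descriptions and protocol. Groups follow the titles here, and every direction between M and T rests on them.

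All 9 macrophage markers checked, among them Adgre1 and Ptprc, which encode the sorted antigens, were above background in every group. Probes well above background made up 60.5% to 66.6% on M arrays, 66.2% to 72.3% on T arrays and 69.98% to 78.7% on Ctrl arrays. The median coefficient of variation of repeated spots was 13.1% to 26.6% on M arrays, 5.63% to 7.15% on T arrays and 9.62% to 11.4% on Ctrl arrays. The M and Ctrl arrays lay on the same slide and scan, and the T arrays on another. Slide therefore cannot be told apart from co-culture in T against Ctrl, or from the difference between the M and T cultures in M against T. Whether a group's arrays hold separate animals or cultures is not said in the labels, so p-values reflect the spread between these samples alone, and that spread may be technical. Across genes Ctrl3 correlated at 0.969 with Ctrl1 and 0.981 with Ctrl2, which correlated at 0.991 with each other. With the M arrays Ctrl3 correlated at 0.968 to 0.977, and with the T arrays at 0.964 to 0.970. The number of arrays limits the precision of every value below.

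Cyclooxygenases, encoded by Ptgs1 and Ptgs2, turn arachidonic acid into prostaglandin H2, which terminal synthases convert to single prostaglandins such as E2 (Ptges) and D2 (Hpgds). In the other branch 5-lipoxygenase (Alox5), helped by its membrane partner FLAP (Alox5ap), makes leukotriene A4, which Lta4h turns into leukotriene B4 and Ltc4s into leukotriene C4. Macrophages are a main source of both families, and they respond to prostaglandin E2 through the receptors EP2 and EP4, encoded by Ptger2 and Ptger4.

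Levels are log2 of the array's processed signal with that array's 75th percentile at 0, and they are not compared between probes. A gene is said to rise or fall where limma's adjusted p, over all genes tested, was under 0.05. In M against T, 3 of the 10 members rose and 2 fell, where 25.4% of all genes were called, 14.6% as higher and 10.8% as lower. In M against Ctrl, 5 rose and none fell, beside 23.2% of all genes called, 12.1% as higher and 11.1% as lower. In T against Ctrl, 6 rose and 1 fell, beside 44.9% of all genes called, 17.5% as higher and 27.4% as lower. The rises in each of the 3 comparisons include Ptger2, which was above background on no T or Ctrl array. It passed the filter through M alone, so its rises in M are not independent of the filter. The median difference of the 9 members other than Ptger2 was 0.11 in M against T, 0.15 in M against Ctrl and 0.82 in T against Ctrl. With Ptger2 among the higher genes it was 0.11 in M against T and 0.58 in M against Ctrl. Over all genes it was 0.11, -0.10 and -0.14 in the same order of comparisons. Each pair of comparisons shares a group of arrays, so they are not independent of each other. The counts of the gene lists below are to be read beside the same shares of all genes called. The arrays did not overlap between the groups for 7 members in M against T, 6 in M against Ctrl and 7 in T against Ctrl, beside 48.2%, 36.2% and 53.6% of all genes. Over the 3 groups together, limma's F test called 7 members, beside 50.8% of all genes, and did not call Ptges, Alox5ap and Ptger4. Ptger2 is also among the members counted as not overlapping and among those the F test called.

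The scaling between arrays set part of these counts. Median scaling moved the median of all genes to -0.01 in M against T, 0.20 in M against Ctrl and 0.28 in T against Ctrl. The share of called genes that were higher was 57.5% in M against T, and 44.8% under median scaling. It was 52.3% in M against Ctrl, with 74.3% under median scaling and 66.2% under quantile normalization, and 38.9% in T against Ctrl, with 65.8% and 52.4%. The number of members called in M against T was 2 without T3 and 3 without each of M2, M3, T1 and T2. The number of all genes called moved further, to 2910 of 18594 in M against T without T3 and 2959 without T2, beside 4716 with all arrays. In M against Ctrl it was 1871 without M3, 2039 without M1, 1952 without Ctrl1, 1954 without Ctrl2 and 7969 without Ctrl3, beside 4312 with all arrays.

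**Figure D1:**
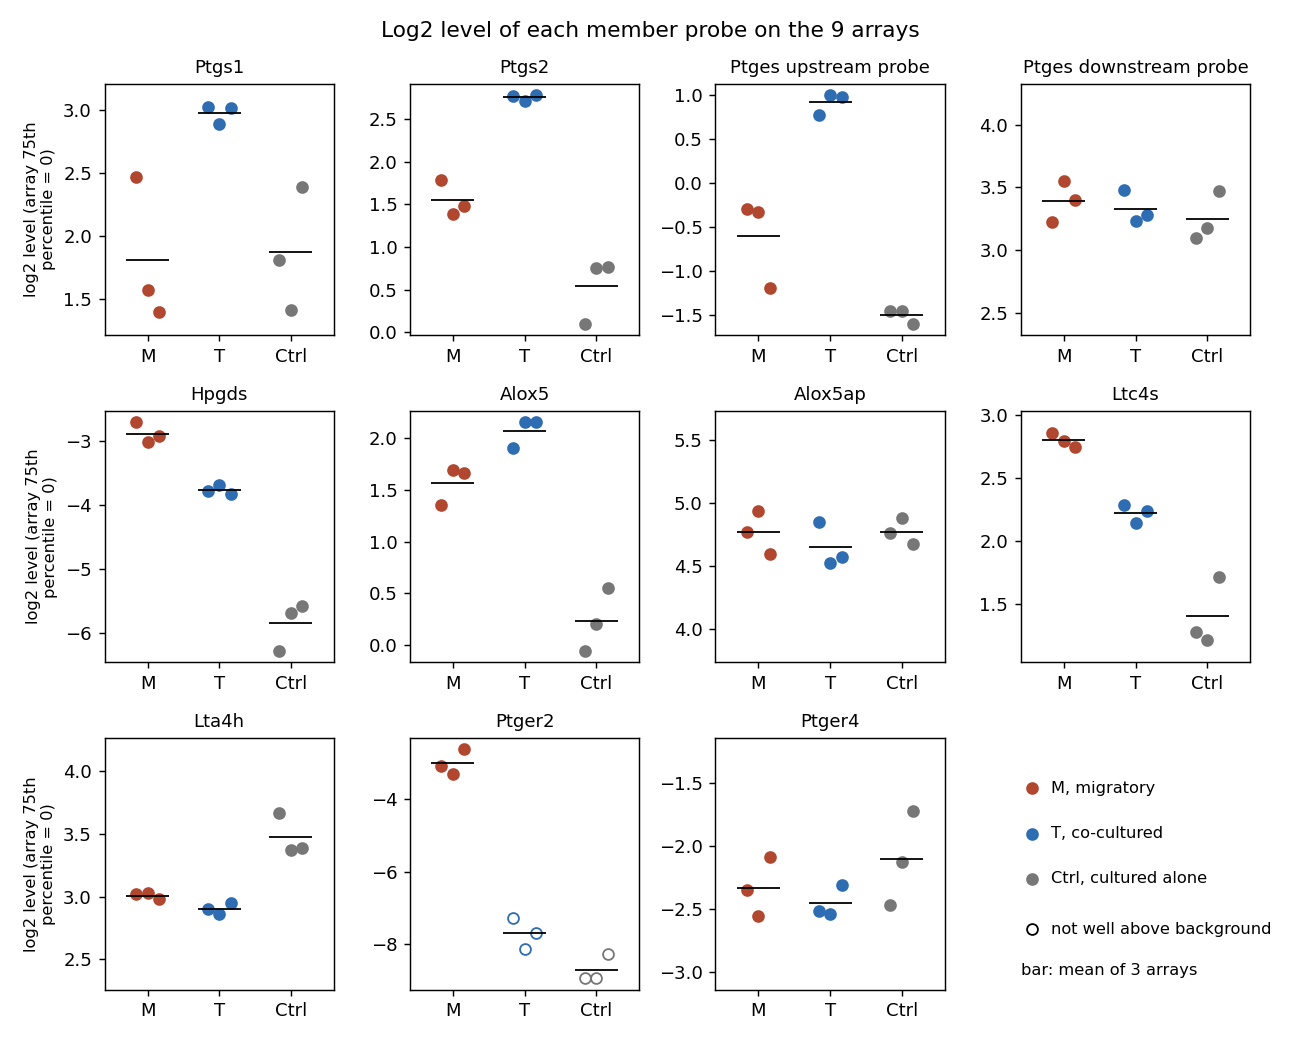
Log2 level (vertical axis, the array's 75th percentile at 0) of each of the 11 member probes on the 3 M, 3 T and 3 Ctrl arrays, with a bar at the mean of each group and open points where the probe was not well above background. Ptgs2 and the upstream Ptges probe were highest in T, Hpgds and Ltc4s were highest in M, and Ptger2 was above background in M alone.

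The inducible cyclooxygenase gene Ptgs2 rose in both co-culture groups, and more in T than in M. Its level was 1.79, 1.39 and 1.48 on the M arrays, 2.77, 2.72 and 2.78 on the T arrays, and 0.10, 0.75 and 0.76 on the Ctrl arrays. The 3 groups did not overlap, in the order T, M, Ctrl. M lay below T by a log2 difference of -1.21 ± 0.21 (SE; adjusted p 0.00263). Ptgs2 rose 2.02-fold in M against Ctrl (log2 1.02 ± 0.21, adjusted p 0.00909) and 4.66-fold in T against Ctrl (2.22 ± 0.21, adjusted p 5.43e-05). Of all genes tested, 2.18% lay as high or higher than Ptgs2 in T against Ctrl, and 7.21% in M against Ctrl. In bulk RNA of sorted cells, fewer cells of a type and less RNA per cell cannot be told apart, here or below. The M against Ctrl call ended without M1 and M3 together (adjusted p 0.220) and without Ctrl1 and Ctrl2 together (0.0800), and with the deposited value table (0.0625).

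The Ptgs2 probe was printed 10 times on each array, which shows the reading error within an array. The spots spread with a coefficient of variation of 17.8%, 3.997% and 30.7% on M1, M2 and M3, where 8 spots of M2 were used, against 2.31%, 3.06% and 3.98% on T1, T2 and T3 and 3.96%, 5.83% and 5.34% on Ctrl1, Ctrl2 and Ctrl3. On M3 single spots reached from 0.35 to 2.02, a range that takes in the Ctrl2 and Ctrl3 spots, whereas the M2 spots, from 1.31 to 1.48, overlapped with no spot of T or Ctrl.

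**Figure D2:**
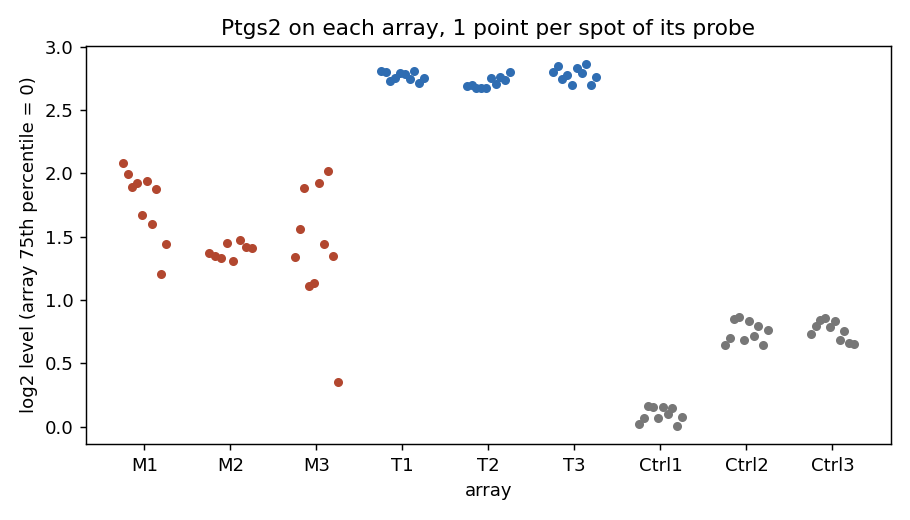
Log2 level (vertical axis, the array's 75th percentile at 0) of each spot of the Ptgs2 probe, 1 point per spot, on the arrays M1 to M3, T1 to T3 and Ctrl1 to Ctrl3. The T spots lie between 2.68 and 2.86, above all M and Ctrl spots, and the M1 and M3 spots are the most widely spread.

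The constitutive cyclooxygenase gene Ptgs1 rose in T alone of the comparisons with Ctrl. It had levels of 2.47, 1.57 and 1.40 on the M arrays, 3.02, 2.89 and 3.02 on the T arrays, and 1.80, 1.41 and 2.39 on the Ctrl arrays. The T arrays lay above all others, while M and Ctrl overlapped across nearly their whole ranges. Ptgs1 fell by 1.17 ± 0.31 on the log2 scale in M against T (adjusted p 0.0213), differed by -0.06 ± 0.31 in M against Ctrl (adjusted p 0.903; 95% interval -0.75 to 0.64), and rose 2.16-fold in T against Ctrl (1.11 ± 0.31, adjusted p 0.0168). The T against Ctrl call ended without T3 (adjusted p 0.0506), without Ctrl2 (0.0668), without Ctrl1 and Ctrl2 together (0.310) and with the deposited value table (0.185). The M against T call ended without each of M2, M3, T1, T2 and T3 (adjusted p 0.0715, 0.0821, 0.0586, 0.0548 and 0.0654), and with the deposited value table with or without its T2 column (0.250 and 0.0556).

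Ptgs1 is also the cyclooxygenase of platelets, and a list of 7 platelet and megakaryocyte genes was read beside it. Their summed level, in multiples of the array's 75th percentile, was 4.07 to 10.2 on the M arrays, 0.924 to 0.953 on the T arrays and 0.397 to 0.447 on the Ctrl arrays. The largest differences were those of Pf4, which encodes a platelet chemokine and was picked out after its values were seen, at 3.60 in M against T, 5.98 in M against Ctrl and 2.38 in T against Ctrl. Pf4 made up most of the M sums, at log2 levels of 2.93, 3.29 and 1.89 on M1, M2 and M3. In M against Ctrl Gp9 also rose, by 2.11. Itga2b, Gp1ba and Gp6 differed there by -0.54, -0.58 and -0.77 without passing. Of 5 tested, 2 rose and 2 fell in M against T, 2 rose and none fell in M against Ctrl, and 4 rose and 1 fell in T against Ctrl. Of all genes, 25.4%, 23.2% and 44.9% were called there. The list medians were 0.17, -0.54 and 1.24 in the same order of comparisons. Gp1ba and Gp5 were above background on no M array, Ppbp on no T array, and Ppbp and Gp5 on no Ctrl array. Gp1ba passed the filter on dim probes through T alone, so its calls against T are not independent of that filter. The part of these genes in the Ptgs1 result was not tested. Ptgs1 is on mm9 chromosome 2 from 36107644 to 36107703 by its probe, and the Ptgs2 probe is on chromosome 1 from 151954744 to 151954803, both on the plus strand.

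Ptges encodes the inducible microsomal prostaglandin E synthase, which acts downstream of Ptgs2, and its 2 probes gave different answers. The upstream probe starts at base 364 of the transcript and the downstream probe at base 3583. The upstream probe had levels of -0.29, -0.32 and -1.19 on the M arrays, 0.78, 1.003 and 0.98 on the T arrays, and -1.45, -1.45 and -1.60 on the Ctrl arrays. It ranked the groups as Ptgs2 did, T above M above Ctrl, with no overlap. The downstream probe had 3.23, 3.55 and 3.40 on the M arrays, 3.48, 3.23 and 3.28 on the T arrays, and 3.096, 3.17 and 3.47 on the Ctrl arrays, where the 3 groups overlapped.

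The downstream probe is the brighter one and stood for the gene. By it Ptges differed by 0.06 ± 0.18 on the log2 scale in M against T (adjusted p 0.833), by 0.15 ± 0.18 in M against Ctrl (0.546) and by 0.08 ± 0.18 in T against Ctrl (0.725), with 95% intervals that all lay within -0.33 to 0.54. In a fit that kept all 24807 named probes, chosen after seeing the data, the upstream probe fell by 1.52 ± 0.24 in M against T (adjusted p 0.00133). In the same fit it rose by 0.90 ± 0.24 in M against Ctrl (adjusted p 0.0265) and 5.35-fold in T against Ctrl (2.42 ± 0.24, adjusted p 6.8e-05). Both probes are assigned to the same RefSeq transcript, and which transcripts each one read was not tested. The upstream probe lies on mm9 chromosome 2 from 30748214 to 30748273 and the downstream probe from 30744995 to 30745054, both on the minus strand. The upstream probe is shown because the rise of Ptges rests on it.
Ptges upstream probe: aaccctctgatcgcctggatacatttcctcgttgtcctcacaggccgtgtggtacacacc

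**Figure D3:**
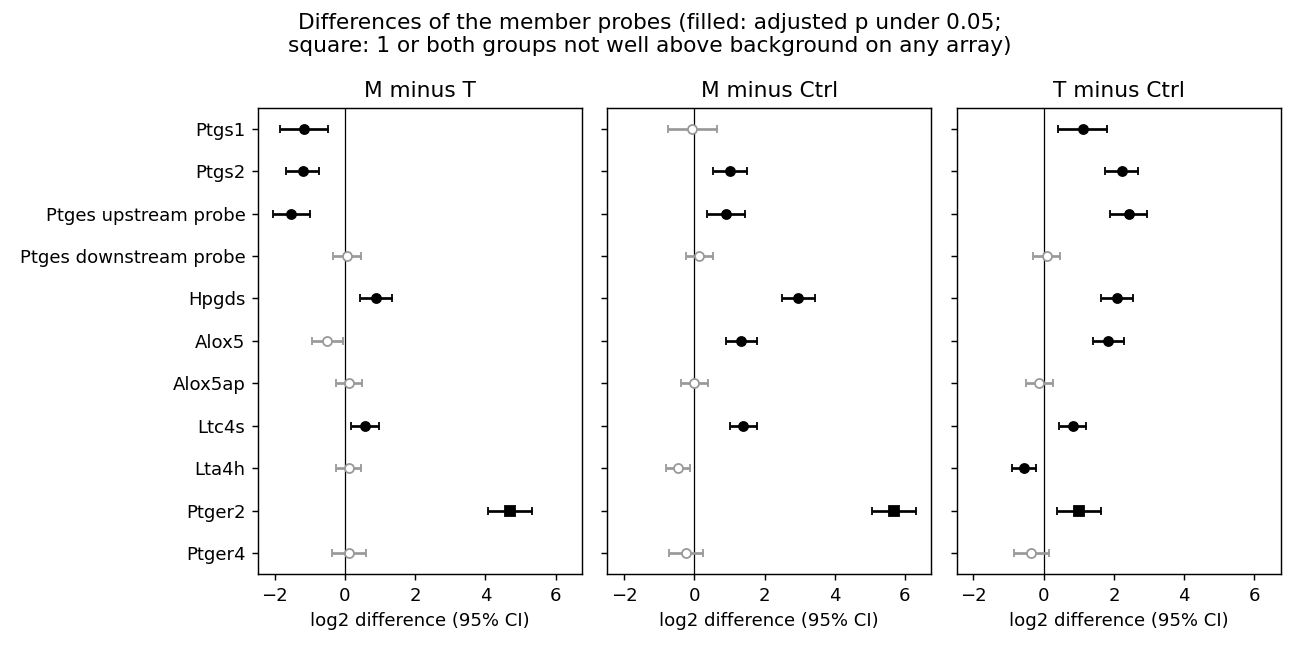
Log2 difference (horizontal axis, with 95% interval) of each member probe in M minus T, M minus Ctrl and T minus Ctrl, filled where limma's adjusted p was under 0.05, with squares where 1 or both groups were above background on no array. The upstream Ptges probe and Ptgs2 lie together in each panel, at -1.52 and -1.21 in M minus T and at 2.42 and 2.22 in T minus Ctrl, while the downstream Ptges probe lies near 0 throughout.

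Hpgds, the haematopoietic prostaglandin D synthase gene, rose in both co-culture groups and more in M than in T. Its level was -2.70, -3.02 and -2.92 on the M arrays, -3.77, -3.69 and -3.83 on the T arrays, and -6.28, -5.69 and -5.57 on the Ctrl arrays, above background on all 9. The groups did not overlap, in the order M, T, Ctrl, the reverse of M and T in Ptgs2. Hpgds was 1.84-fold higher in M than in T (log2 0.88 ± 0.21, adjusted p 0.0121). It rose 7.82-fold in M against Ctrl (2.97 ± 0.21, adjusted p 5.82e-06) and 4.25-fold in T against Ctrl (2.09 ± 0.21, adjusted p 7.28e-05). Of all genes, 1.01% were as high or higher than Hpgds in M against Ctrl. The M against T call ended without T3 (adjusted p 0.0502), without M1 and M3 together (0.162), under median scaling (0.0762), under quantile normalization (0.0557) and with the deposited value table (0.655). Both calls against Ctrl held in every setting run for them, but with normexp background correction the differences were 1.85 in M and 1.13 in T.

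The Hpgds probe spans 3529 bases of mm9 chromosome 6, from 65070081 to 65073609 on the minus strand, for its 60 bases, so it reads across a splice junction. It is shown because Hpgds had the largest fold in M against Ctrl of the members above background in every group.
Hpgds probe: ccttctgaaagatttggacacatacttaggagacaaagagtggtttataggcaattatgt

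Mast cells are a known site of Hpgds and Ltc4s, and 10 mast cell markers were read beside them. Cpa3, Tpsab1, Ms4a2 and Fcer1a were above background on no array of any group, and Kit and Mcpt4 on no M or T array. The summed level of the list was 0.233 to 0.317 on the M arrays, 0.537 to 0.587 on the T arrays and 0.233 to 0.316 on the Ctrl arrays. Of 4 tested, Gata2 rose in M and Kit and Tpsb2 fell, while Gata2 and Tpsb2 rose in T and Kit and Cma1 fell, each against Ctrl. Kit passed the filter on dim probes through Ctrl alone, so its falls are not independent of that filter. Eosinophils also make leukotriene C4, and a list of 11 eosinophil and granulocyte genes summed to 0.779 to 1.23 on the M arrays, 0.883 to 1.15 on the T arrays and 1.21 to 2.16 on the Ctrl arrays. Of its 9 tested members none was called in M and 5 fell in T, against Ctrl. Prg2 and Siglecf, among those that fell, also passed the filter through Ctrl alone. Of all genes, 23.2% were called in M against Ctrl and 44.9% in T against Ctrl, 27.4% as lower in the latter.

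Of the leukotriene genes, Alox5 and Ltc4s rose in both co-culture groups, Lta4h fell in T, and Alox5ap was called in no comparison. Alox5, the 5-lipoxygenase gene, had levels of 1.35, 1.69 and 1.66 on the M arrays, 1.91, 2.15 and 2.15 on the T arrays, and -0.06, 0.21 and 0.56 on the Ctrl arrays. No array of M or T overlapped with Ctrl, and every T array lay above every M array. Alox5 rose 2.52-fold in M against Ctrl (log2 1.33 ± 0.20, adjusted p 0.00132) and 3.57-fold in T against Ctrl (1.84 ± 0.20, adjusted p 0.000124), and both calls held in every setting tried. In M against T it differed by -0.50 ± 0.20 and did not pass (adjusted p 0.0918), and it did without Ctrl3 (0.0386), without Ctrl1 and Ctrl2 together or with only the M and T arrays (0.0455 each) and with array weights (0.00106).

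Ltc4s, the leukotriene C4 synthase gene, had levels of 2.86, 2.80 and 2.75 on the M arrays, 2.28, 2.15 and 2.24 on the T arrays, and 1.28, 1.22 and 1.71 on the Ctrl arrays. The groups stood apart in the order M, T, Ctrl, as for Hpgds. Ltc4s rose 2.64-fold in M against Ctrl (log2 1.40 ± 0.18, adjusted p 0.000398) and 1.77-fold in T against Ctrl (0.82 ± 0.18, adjusted p 0.00481). In M against T it rose 1.49-fold (0.58 ± 0.18, adjusted p 0.0363), a call that ended without each of M1, M2, M3, T1, T2 and T3 (adjusted p 0.0676 to 0.128), without M1 and M3 together (0.211), under median scaling (0.236), with the replicate block (0.0641) and with the deposited value table with or without its T2 column (0.167 and 0.126). The T against Ctrl call ended without Ctrl1 and Ctrl2 together (adjusted p 0.0874).

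Lta4h, the leukotriene A4 hydrolase gene, had levels of 3.02, 3.03 and 2.98 on the M arrays, 2.90, 2.86 and 2.95 on the T arrays, and 3.66, 3.37 and 3.38 on the Ctrl arrays. Both co-culture groups lay below every Ctrl array, and M lay just above T. Lta4h fell by 0.57 ± 0.15 on the log2 scale in T against Ctrl (adjusted p 0.0142). In M against Ctrl it differed by -0.46 ± 0.15 (adjusted p 0.0534), and in M against T by 0.11 ± 0.15 (adjusted p 0.665). The T against Ctrl call ended without T2 (adjusted p 0.0597), without Ctrl1 (0.0508), without Ctrl1 and Ctrl2 together (0.0930), with the deposited value table without its T2 column (0.0585) and under median scaling, where the difference was -0.15 (0.576). In M against Ctrl the gene passed in 5 settings, among them without Ctrl3 (adjusted p 0.0233).

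Alox5ap, which encodes the activating protein FLAP, had levels of 4.77, 4.94 and 4.59 on the M arrays, 4.85, 4.52 and 4.57 on the T arrays, and 4.76, 4.88 and 4.67 on the Ctrl arrays. The groups overlapped. Its log2 difference was 0.12 ± 0.17 in M against T, -0.00 ± 0.17 in M against Ctrl and -0.12 ± 0.17 in T against Ctrl, with 95% intervals within -0.50 and 0.50, and its sign changed with the scaling. On mm9 the Alox5 probe lies on chromosome 6 from 116360326 to 116360385, the Alox5ap probe on chromosome 5 from 150099347 to 150099406, the Ltc4s probe on chromosome 11 from 50049974 to 50050031, and the Lta4h probe on chromosome 10 from 92947503 to 92947562. Exon and UTR annotation of that build was not used here.

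Of the 2 prostaglandin E2 receptors, Ptger2 was above background in M alone. The EP2 gene Ptger2 had levels of -3.09, -3.30 and -2.62 on the M arrays, -7.28, -8.12 and -7.69 on the T arrays, and -8.92, -8.94 and -8.26 on the Ctrl arrays. All 3 M arrays had its probe well above background, and no T or Ctrl array did. Ptger2 was at least 11.3-fold higher in M than in T (adjusted p 3.4e-06) and at least 11.2-fold higher in M than in Ctrl (adjusted p 5.56e-07). These bounds set the M mean against the lowest signal that counted as well above background on the dim arrays, or the probe's own signal where that was higher. Here and below such bounds are ratios of group means and make no allowance for the spread between arrays. The fit also called T above Ctrl (adjusted p 0.0166), with no fold given since both lay below background, and that call ended with normexp (difference 0.30, adjusted p 0.246), without T1, Ctrl1 or Ctrl2 (0.0569, 0.0563 and 0.0620), without Ctrl1 and Ctrl2 together (0.311) and with the deposited value table (0.0754). With normexp, whose offset of 50 compresses dim signals, Ptger2 differed by 2.29 in M against T and by 2.59 in M against Ctrl, both still called and both below the bounds given above. The M against T call of Ptger2 ended with the deposited value table (adjusted p 0.198), whose T2 column reads -1.97 for Ptger2 and equals no scanner file, and it held once that column was left out.

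The EP4 gene Ptger4 had levels of -2.35, -2.56 and -2.09 on the M arrays, -2.52, -2.54 and -2.31 on the T arrays, and -2.47, -2.13 and -1.72 on the Ctrl arrays, above background on all 9. The groups overlapped, and the widest spread was in Ctrl. Its difference was 0.12 ± 0.22 in M against T (adjusted p 0.733), -0.23 ± 0.22 in M against Ctrl (0.453) and -0.35 ± 0.22 in T against Ctrl (0.218), and the 95% intervals lay within -0.84 and 0.61. Under median scaling the sign of each turned. On mm9 the Ptger2 probe lies on chromosome 14 from 45622004 to 45622063 and the Ptger4 probe on chromosome 15 from 5184419 to 5184478.

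T and M macrophages had been co-cultured with carcinoma cells, and 11 carcinoma epithelium markers were read beside the members. Their summed level was 1.59 to 1.98 on the M arrays, 2.09 to 2.30 on the T arrays and 1.73 to 2.82 on the Ctrl arrays. Of 9 tested, 3 rose and 3 fell in T against Ctrl, with Krt19 up by 3.63 on the log2 scale and Epcam down at -1.60, and 1 fell in M against Ctrl. Of all genes, 44.9% were called in T against Ctrl and 23.2% in M against Ctrl. Epcam passed the filter on dim probes through Ctrl alone, so its fall is not independent of that filter. Cdh1 was above background on no M or T array, and Krt8 on no M array. Their part in the member results was not tested.

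RefSeq start sites of build GRCm38.p6 gave a promoter window of 300 bases, from 250 before the start to 50 after it, for 9 of the 10 members. Alox5ap was not among them. The windows were searched on both strands for TGACGT (cAMP response element core), CACGTG (E-box), TTGCNNAA (C/EBP), TGANTCA (AP-1), the NF-kB motif (GGG and CC with 5 bases of any kind between them), GCGNGGGCG (EGR), GAGGAAGT (PU.1 core) and TATAAA. Over all 32851 windows, 7.51% held TGACGT, 7.15% CACGTG, 10.8% TTGCNNAA, 7.81% TGANTCA, 50.8% the NF-kB motif, 5.55% GCGNGGGCG, 3.20% GAGGAAGT and 13.6% TATAAA. Ptgs2 and Hpgds are shown as the synthases that rose in both groups, in opposite order of M and T, and Ptger2 as the gene above background in M alone. Capitals mark matched letters, and matches are a description of the sequence only. The windows lie at chr1:150099781-150100080 on the plus strand (Ptgs2), chr6:65144681-65144980 on the minus strand (Hpgds) and chr14:44987861-44988160 on the plus strand (Ptger2).
Ptgs2 promoter: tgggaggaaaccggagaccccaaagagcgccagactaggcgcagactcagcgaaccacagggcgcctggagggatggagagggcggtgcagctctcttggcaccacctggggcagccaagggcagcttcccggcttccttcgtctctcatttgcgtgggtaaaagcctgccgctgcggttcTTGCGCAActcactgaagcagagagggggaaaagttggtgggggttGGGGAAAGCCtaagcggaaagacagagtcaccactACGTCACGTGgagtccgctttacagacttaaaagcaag
Hpgds promoter: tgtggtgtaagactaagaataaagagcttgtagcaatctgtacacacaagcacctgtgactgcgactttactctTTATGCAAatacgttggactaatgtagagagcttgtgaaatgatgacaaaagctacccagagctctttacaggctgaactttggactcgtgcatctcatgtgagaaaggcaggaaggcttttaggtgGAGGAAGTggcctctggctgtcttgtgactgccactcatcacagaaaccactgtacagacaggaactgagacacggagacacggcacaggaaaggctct
Ptger2 promoter: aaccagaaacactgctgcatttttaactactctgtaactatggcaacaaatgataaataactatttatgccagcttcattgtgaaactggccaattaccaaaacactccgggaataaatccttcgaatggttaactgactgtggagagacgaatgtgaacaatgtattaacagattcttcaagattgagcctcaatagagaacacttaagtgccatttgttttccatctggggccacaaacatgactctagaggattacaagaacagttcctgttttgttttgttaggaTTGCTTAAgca

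The Ptgs2 window held the palindrome TTGCGCAA, whose first base is at -69, an NF-kB match GGGGAAAGCC at -23, and the sequence ACGTCA at 13, the cAMP element core read on the minus strand, which shares 2 bases with the E-box CACGTG at 17. Hpgds held a C/EBP match on the minus strand, TTATGCAA at -176, and the PU.1 core GAGGAAGT at -49, a motif that was also in the Ptgs1 window at -24. Ptger2 held a single C/EBP match, TTGCTTAA at 40. The Ptges window held the NF-kB match GGGGGTGACC at -38. The windows of Alox5, Lta4h and Ptger4 held 3 matches each, all of the NF-kB pattern that is in 50.8% of windows, and that of Ltc4s held none of the 8 motifs.

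In the rest of the pathway, 13 of 15 phospholipase genes that can release arachidonate were tested. In M against T 2 rose and 2 fell (list median 0.28), as in M against Ctrl (-0.04). In T against Ctrl 2 rose and 3 fell (-0.40). Of all genes, 25.4%, 23.2% and 44.9% were called in the same order, shares that also stand beside the pathway lists below. Pla2g2d passed the filter on dim probes through M alone and Pla2g2c through Ctrl alone. Pla2g2d, a secreted enzyme, was at least 9.44-fold higher in M than in T and rose by 3.25 ± 0.21 on the log2 scale in M against Ctrl, where 1 of 3 Ctrl arrays was above background. Pla2g2e rose by 1.90 ± 0.26 in M and 1.71 ± 0.26 in T, each against Ctrl. Pla2g5 fell by 1.43 ± 0.24 and Pla2g10 was at least 2.12-fold lower in M than in T. Pla2g3 fell by 1.16 ± 0.30 in T against Ctrl by its brightest probe, a call that ended under quantile normalization (-0.65, adjusted p 0.0646). As the mean of its tested probes the difference was -2.56, so another probe fell further. With normexp it was -2.83, where the brightest probe was chosen anew and may be another one. Pla2g4a and Pla2g4f were singled out after their values were seen. The cytosolic Pla2g4f rose by 0.82 ± 0.20 in M against T. Pla2g4a, the main cytosolic supplier of arachidonate, differed by -0.04 ± 0.20 in M against Ctrl and 0.18 ± 0.20 in T against Ctrl without passing. Pla2g2c fell by 4.02 ± 1.14 in M and by 4.56 ± 1.14 in T against Ctrl, with 1 of 3 M and 1 of 3 T arrays above background, and its Ctrl arrays read -0.14, -1.39 and -5.38. Its difference in M was -2.94 without Ctrl1 and its call there ended without Ctrl1, Ctrl2, M1 or M3 (adjusted p 0.112, 0.114, 0.111 and 0.0816), and its difference in T was -3.48 without Ctrl1.

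Of the 8 other prostanoid synthases 1 rose and 1 fell in M against T (list median 0.36), 1 fell in M against Ctrl (-0.16), and 1 rose and 3 fell in T against Ctrl (-0.27). Ptges2, a second prostaglandin E synthase gene, rose by 0.88 ± 0.17 in M against T. Prxl2b, which encodes a prostaglandin F synthase, fell by 1.62 ± 0.19 in M against T and by 1.04 ± 0.19 in M against Ctrl, and rose by 0.57 ± 0.19 in T against Ctrl. The prostacyclin synthase gene Ptgis fell by 1.83 ± 0.42 in T against Ctrl, and the difference was -1.24 without Ctrl1. Ptgds, the lipocalin-type prostaglandin D synthase gene, fell by 1.03 ± 0.30 in T against Ctrl with 2 of 3 T arrays above background. It passed the filter on dim probes through Ctrl alone, so its fall and its place in the count are not independent of that filter. The rise of Prxl2b in T ended without each of Ctrl1, Ctrl2, T1, T2 and T3 (adjusted p 0.0690 to 0.106) and with the replicate number as a block (0.0533). The fall of Ptgds ended without Ctrl1, Ctrl2, T2 or T3 (0.0507 to 0.0600).

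Of 7 other prostanoid receptors 4 were tested, and none rose. In M against T 1 fell (list median -0.48), in M against Ctrl 2 fell (-0.88) and in T against Ctrl 1 fell (-0.28). The EP1 gene Ptger1 fell by 2.35 ± 0.32 in M and by 1.83 ± 0.32 in T, each against Ctrl. The prostacyclin receptor gene Ptgir fell by 1.15 ± 0.22 in M against T and by 1.38 ± 0.22 in M against Ctrl. Ptger3, Ptgdr and Ptgfr did not pass the filter on dim probes.

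Of 5 genes of prostanoid transport and breakdown 4 were tested, with 1 rise and 1 fall in each of the 3 comparisons (list medians 0.00, -0.23 and 0.08 for M against T, M against Ctrl and T against Ctrl). Abcc4, which exports prostaglandins, fell by 1.94 ± 0.25 in M against T and rose by 1.66 ± 0.25 in T against Ctrl. Slco2a1, which imports them, was at least 1.73-fold lower in M and fell by 1.26 ± 0.33 in T, each against Ctrl. Of the T arrays 2 of 3 were above background, and no M array was. Slco2a1 passed the filter on dim probes through Ctrl alone, so its falls are not independent of that filter. In M against Ctrl its difference was -0.47 with normexp and -0.73 under quantile normalization, both smaller than that at-least fold. The reductase gene Ptgr1, whose product inactivates prostaglandins and leukotriene B4, rose by 0.96 ± 0.25 in M against T and by 1.13 ± 0.25 in M against Ctrl. Hpgd, the prostaglandin dehydrogenase gene, did not pass the filter on dim probes. The call of Slco2a1 in M ended without Ctrl1, Ctrl2, M1, M3, T2 or T3 (adjusted p 0.0540 to 0.141). That of Ptgr1 ended without Ctrl2 in M against Ctrl (0.0562), and without M2, T2 or T3 in M against T (0.0603 to 0.0705).

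On the lipoxygenase side, 3 of 6 other lipoxygenases were tested, and the only call was the 12/15-lipoxygenase gene Alox15, which fell by 1.16 ± 0.22 in T against Ctrl (list medians 0.10, -0.49 and -1.16 for M against T, M against Ctrl and T against Ctrl). Of 8 genes of leukotriene processing and export 7 were tested, and 1 rose in M against T, 2 rose and 1 fell in M against Ctrl, and 1 rose and 2 fell in T against Ctrl (list medians -0.19, -0.18 and 0.10). Dpep2, whose product turns leukotriene D4 into E4, rose by 2.03 ± 0.24 in M and 2.22 ± 0.24 in T, each against Ctrl. Ggt5, which makes leukotriene D4 from C4, fell by 0.86 ± 0.28 in M and by 1.38 ± 0.28 in T, each against Ctrl. Cyp4f18, which hydroxylates leukotriene B4, rose by 1.92 ± 0.26 in M against T and by 1.54 ± 0.26 in M against Ctrl. The M against Ctrl call of Ggt5 ended without Ctrl1, Ctrl2, M1, M3, T2 or T3 (adjusted p 0.0575 to 0.166).

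Of 8 leukotriene and lipid mediator receptors 7 were on the array and 4 were tested. In M against T 2 rose and 2 fell, in M against Ctrl 2 rose, and in T against Ctrl 2 rose (list medians -0.15, 0.55 and 0.94). Fpr2 passed the filter on dim probes through M alone and Gpr18 through T alone. They are the 2 called in T against Ctrl, so these counts and medians depend on that filter. Ltb4r1, the high-affinity leukotriene B4 receptor gene, rose by 0.86 ± 0.16 in M against Ctrl. The cysteinyl leukotriene receptor gene Cysltr1 fell by 0.79 ± 0.25 in M against T, a call that ended without each of Ctrl2, M1, M2, M3, T1, T2 and T3 (adjusted p 0.0582 to 0.114). Fpr2, a receptor for formyl peptides and lipoxin, was at least 3.17-fold higher in M than in T and at least 3.15-fold higher in M than in Ctrl, with neither T nor Ctrl above background on any array. It was 1 of the 2 receptors called in T against Ctrl, with no fold given there. Gpr18, a receptor proposed to bind lipid mediators, was at least 2.51-fold lower in M than in T and rose by 2.06 ± 0.44 in T against Ctrl, where 1 of 3 Ctrl arrays was above background.

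Of 39 called differences of these named pathway genes, 6 lost the call with normexp, 7 under median scaling, 6 under quantile normalization and 1 with the replicate block. The call was lost by 14 each with the deposited value table, without M1 and M3 together and without Ctrl1 and Ctrl2 together, sets that overlap. With normexp the lost calls were those of Fpr2 (0.18), Ptgds (-0.50) and Slco2a1 (-0.56, adjusted p 0.0550) in T against Ctrl, Slco2a1 (-0.47) and Ggt5 (-0.54) in M against Ctrl, and Cysltr1 (-0.68) in M against T. Quantile normalization ended those of Ptgds (-0.40), Pla2g3 and Slco2a1 (-0.65, adjusted p 0.0793) in T against Ctrl, Slco2a1 (-0.73) and Ggt5 (-0.65) in M against Ctrl, and Cysltr1 (-0.77) in M against T. Median scaling ended those of Ptgds in T against Ctrl, Ggt5, Prxl2b and Slco2a1 in M against Ctrl, and Cysltr1, Ptges2 and Ptgr1 in M against T. Several dim genes that kept their calls had smaller differences with normexp. In M against T they were 1.63 for Pla2g2d, 1.15 for Fpr2, -0.76 for Gpr18 and -0.77 for Pla2g10, each smaller than the at-least fold given above. In M against Ctrl they were 1.51 for Pla2g2d, 1.34 for Fpr2 and -2.57 for Pla2g2c, and in T against Ctrl 0.96 for Gpr18 and -2.93 for Pla2g2c.

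**Figure D4:**
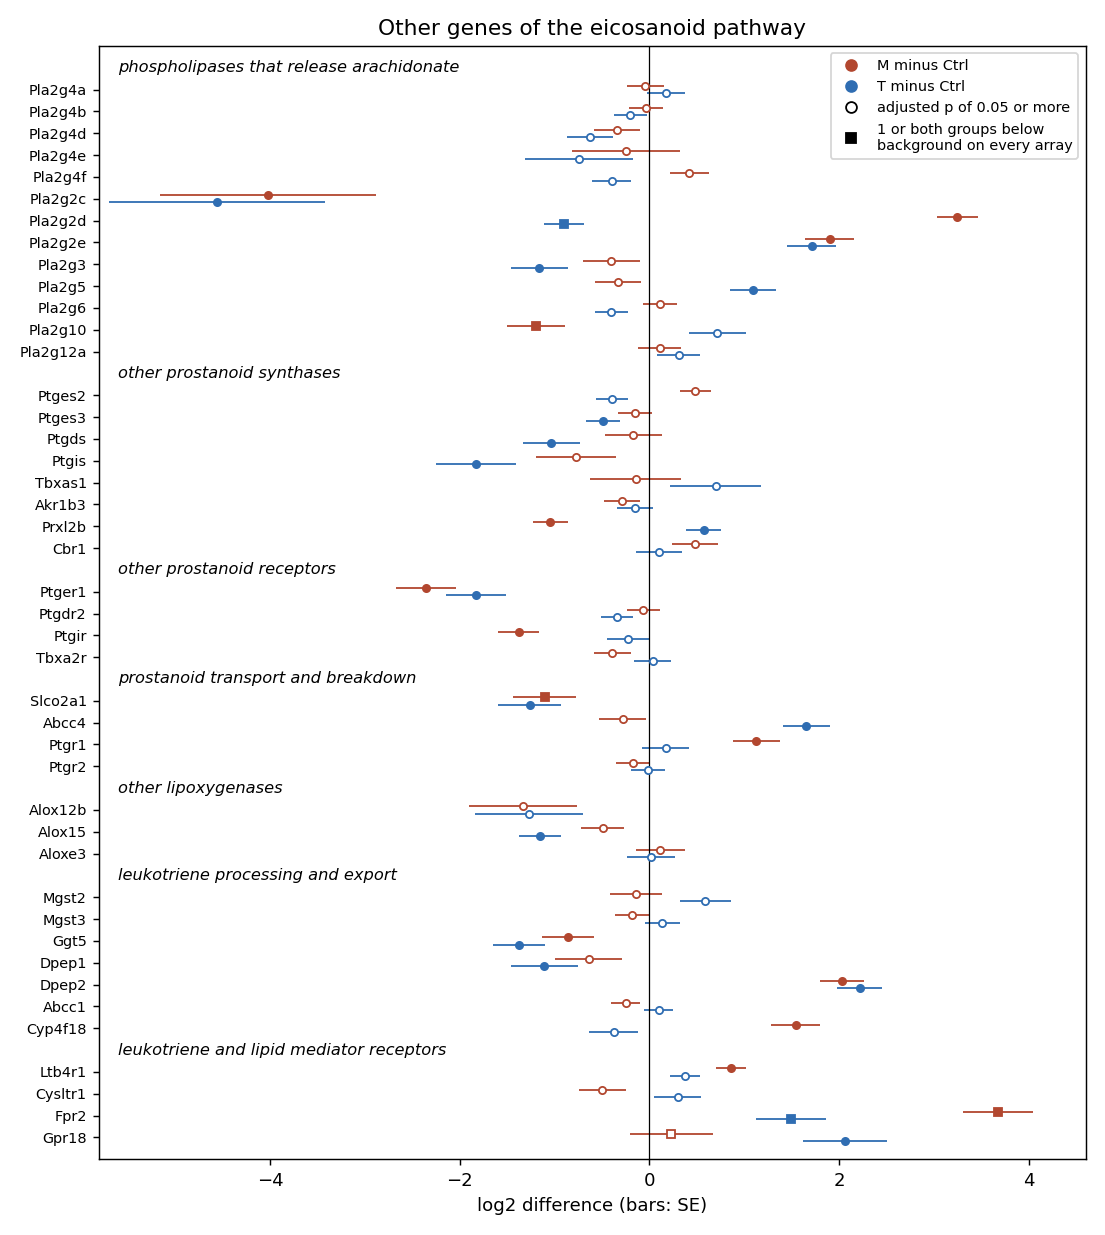
Log2 difference from Ctrl (horizontal axis, bars are SE) of the tested genes of 7 pathway lists, in M (red) and T (blue), filled where limma's adjusted p was under 0.05, with squares where 1 or both groups were above background on no array. Pla2g2e and Dpep2 lie to the right and Ptger1 to the left in both, while Pla2g2d and Cyp4f18 are to the right in M alone and Abcc4 in T alone.

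For each member up to 2 genes with the most similar profile over the 9 arrays are given, taken by the root mean square difference of centred log2 levels. Ptgs2 was nearest to Phf1 (0.13) and Rbm12b2 (0.18), where its own levels varied by 0.93 around their mean. Hpgds was nearest to B3galnt1 (0.16) and Lims2 (0.19), beside 1.26 of its own, and Ptger2 to Scel (0.33) and Ccdc80 (0.38), beside 2.50. Alox5 was nearest to Prmt2 (0.13) and Zbtb4 (0.15), Ltc4s to Rps6ka4 and Tspan17 (0.11 each), Lta4h to Mettl5 and Rad9b (0.09 each), and Ptgs1 to Mars2 (0.19) and Ascl3 (0.20). Ptges by its downstream probe was nearest to Kctd2 (0.03) and Ywhah (0.05), Alox5ap to Dhrs4 (0.08), and Ptger4 to Cep76 (0.08) and Wdcp (0.12). Members were left out as candidates, so likeness between members was not looked at here.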

How the data were processed

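Arrays were labelled with Cy3. Spots were read by Agilent Feature Extraction (10.7.3.1 in the submitters' processing notes). The deposited scanner files give a background-subtracted signal intensity for every spot, and per the file headers no scaling between arrays was applied. The authors also deposited values of these arrays in a second table whose scale is not stated. Set against the scanner files, 4 of its columns are linear intensities (medians 195, 246 and 219 for M1 to M3, 215 for Ctrl1). The other 5 deposited columns are log2 values with the 75th percentile at about 0 (medians -3.76, -3.93 and -4.03 for T1 to T3, -3.39 and -3.71 for Ctrl2 and Ctrl3). Columns M1 and M2 match each other's scanner file. Column T2 matches none, so its scale and centring rest on its values alone. None of the columns that match a scanner file is a ratio, so higher values there mean more signal. Which arrays are M and which are T still rests on the titles.

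Here control spots and outlier spots (147 to 299 per array) were removed. None was saturated. Spots were averaged by probe, and the 75th percentile of log2 was subtracted per array. Names came from the files' accessions through RefSeq's GRCm38.p6 table (26762 probes) or from the files (6488), and 22431 unnamed probes were kept apart. Testing required a signal well above background in all 3 arrays of some group, and a gene's brightest probe was used. Group means were fitted over all 9 arrays with limma 3.58.1 in R 4.3.3 (lmFit, eBayes, Benjamini-Hochberg adjustment, threshold 0.05), tested on simulated data. Each SE is limma's moderated SE, pooled over the groups.

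The labels number the replicates 1, 2 and 3 in each group. Deviations of same-numbered T and Ctrl arrays from their group means correlated at 0.55, 0.12 and 0.38, which pairs them by the rule used (every pair over 0.1), although T2 correlated more with Ctrl3 (0.19). The numbers did not pair M with T (-0.27, -0.14 and 0.02) or M with Ctrl (-0.27, -0.19 and 0.02). The fits above leave the pairing of T and Ctrl out, as the labels do not say that a number marks a shared animal or day. Results with the replicate number as a block are given below.

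Members, gene lists and alternatives were chosen with earlier results of these data known. Pathway genes were named where called and not overlapping between the groups, at most the 3 largest differences per list and comparison. The lists covered the pathway and markers of macrophages, mast cells, eosinophils and granulocytes, B cells, T and NK cells, platelets, carcinoma epithelium, and fibroblasts and mesothelium. Alternatives covered the background correction, scaling, dim-probe filter, choice of probe, deposited table, array weights, replicate block and arrays left out. Some genes that these rules took are not reported here.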

Additional observations from a re-analysis of the deposited data

How the results depend on the processing

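Over the 25 settings tried, the member differences were computed 700 times besides the values above. Of these, 615 kept their direction and their side of the threshold, 43 lost a call, 13 gained one and 29 changed sign. Ptgs2, Hpgds and Alox5 in T against Ctrl, Hpgds, Alox5, Ltc4s and Ptger2 in M against Ctrl, and Ptgs2 in M against T kept their calls in all settings run for each. These were 23 settings, and 24 in M against Ctrl, where the fit within slide 1 was also run. Ptger2 had 23 there, as the filter on all 9 arrays leaves it out. Apart from Ptges in M against T, no value that changed sign passed the threshold. The causes were not tested.

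Leaving out the deposited table's T2 column and fitting both Ptges probes were chosen after seeing the data. Members called in M against T were 5, with 3 under median scaling, 1 with the deposited table, 3 with that table without its T2 column, 3 without M replicates 1 and 3 together, and 2 to 6 with single arrays left out. Members called in T against Ctrl were 7, with 3 without Ctrl replicates 1 and 2 together. Genes called in M against T were 4716, with 7395 without the dim-probe filter, 1438 with the deposited table, 2951 without its T2 column, 11637 with array weights, 2397 without M replicates 1 and 3, and 2910 to 6215 with single arrays left out. Genes called in M against Ctrl were 4312, with 2057 with the deposited table, 2193 over those 2 groups only, which is also the fit within slide 1, 9779 with array weights, 901 without M replicates 1 and 3, 1275 without Ctrl replicates 1 and 2, and 1871 to 7969 with single arrays left out. Genes called in T against Ctrl were 8350, and 3345 without Ctrl replicates 1 and 2.

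With the replicate number as a block, 8030 genes and 7 members were called in T against Ctrl, 4545 and 5 in M against Ctrl, and 4287 and 4 in M against T, where Ltc4s lost its call (0.58, adjusted p 0.0641). The block changed no other member's call, and of the named pathway genes Prxl2b lost its call in T against Ctrl (0.57, adjusted p 0.0533).

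Sign changes were as follows. Alox5ap was 0.16 in T against Ctrl and -0.30 in M against T with normexp, 0.30 in T against Ctrl, 0.30 in M against Ctrl and -0.0042 in M against T with median scaling, 0.10 in T and 0.21 in M against Ctrl with quantile normalization, and in M against Ctrl 0.17 without M replicates 1 and 3, 0.096 without Ctrl replicates 1 and 2, and -0.090 to 0.084 with single arrays left out. Ptger4 under median scaling was 0.075 in T and 0.074 in M against Ctrl and -0.0011 in M against T. Ptger4 was 0.10 in M against Ctrl with array weights, and in M against T -0.11 without M replicates 1 and 3 and -0.00046 to 0.23 with single arrays left out. Ptgs1 in M against Ctrl was 0.24 under median scaling and -0.39 to 0.20 with single arrays left out. Lta4h in M against T was -0.017 under median scaling. Ptges in M against T (0.06) was -0.059 under median scaling, -0.012 with the deposited table, -0.016 to 0.15 with single arrays left out, -0.73 as the mean of both probes (adjusted p 0.00975) and -1.52 by the upstream probe. As that mean it was called in all comparisons (1.25 in T and 0.52 in M against Ctrl). Ptges was -0.14 in T and -0.078 in M against Ctrl without Ctrl replicates 1 and 2. Prxl2b in T against Ctrl was -0.12 with the deposited table. With arrays, signal over background sets the limit, here for Ptger2, Pla2g2d, Fpr2, Pla2g10, Gpr18 and Slco2a1, which lay below it in at least 1 group.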

Other observations

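The 9 macrophage genes summed to 184 to 259 on the M arrays, 157 to 216 on the T arrays and 195 to 236 on the Ctrl arrays, in multiples of the array's 75th percentile. Of these 9, 3 rose and 1 fell in M against T, 4 rose in M against Ctrl and 3 rose in T against Ctrl. Adgre1 rose by 2.86 and Ptprc by 0.80 on the log2 scale in M against Ctrl. Of 6 tested B cell markers 1 rose and 2 fell in M against T, none was called in M against Ctrl and 3 fell in T against Ctrl, and Ms4a1 was above background on no array. Of 6 tested T and NK cell markers 1 rose in M against T, 1 rose in M against Ctrl and 4 fell in T against Ctrl. Cd3d, the rise in M against Ctrl, was above background on no M or Ctrl array and passed the filter through T alone. Cd2, among the falls, passed it through Ctrl alone. Of all genes, 27.4% were called as lower in T against Ctrl. Of 4 tested fibroblast and mesothelium markers none was called in M against T or M against Ctrl and 1 fell in T against Ctrl, and Pdgfra, Dcn, Lum, Upk3b and Wt1 were above background on no array.

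The deposited value table gave the members other values in its T2 column. Ptger2 stood at -1.97 there and at -8.12 in the T2 scanner file, Hpgds at -2.09 and -3.69, and Ptgs2 at 3.74 and 2.72.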
